A study of Sus scrofa with 70 samples.

Results

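Heat shock proteins of the HSP70, HSP110 and HSP90 families were examined as 8 genes, of which HSPA2, HSPA1L and HSPA4L are known as testis forms and HSPA4, HSPA8, HSPH1, HSP90AA1 and HSP90AB1 as relatives used throughout the body. They were chosen by name from 35680 genes with a value above 0 in the RNA-seq data, and the question was how the testis forms compare with their somatic relatives in each gland and breed. The samples came from boars aged 12 months of the Banna mini-pig inbred line (BMI) and of Diannan small-ear pigs (DSE), the population from which the inbred line was bred. Untreated tissue of the testis and epididymis and of 3 accessory glands (bulbourethral, prostate and vesicular) was sequenced, with 3 RNA-seq libraries and 1 Iso-seq library (PacBio full-length cDNA) per breed and gland, so that each gland had 6 RNA-seq libraries. The sources used here do not say which libraries share a boar, so p-values measure the spread between these libraries. RNA-seq levels are TPM, which scale reads by transcript length and by the total of the library. The TPM table holds no counts, so no counting error was derived from it, whereas the 10 Iso-seq libraries held 231413 to 458697 full-length reads.

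HSP70 chaperones bind unfolded stretches of protein and release them in a cycle driven by ATP. J proteins hand substrates to HSP70, HSP110 proteins and BAG proteins exchange its nucleotide, and HSP90 with its co-chaperones finishes the folding of kinases and receptors. Male germ cells use gene copies of their own for several of these steps: HSPA2 is needed in spermatocytes for the end of meiotic prophase and HSPA1L appears in spermatids.

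The labels of the testis libraries held against markers of spermatocytes, spermatids and Leydig cells. In all 6 testis libraries, 9 of 10 spermatocyte, 12 of 12 spermatid and 6 of 6 measured Leydig cell markers reached 1 TPM. Of the Sertoli cell markers 7 of 9 did, and 6 were called higher in testis. Of the spermatogonium markers 5 of 8 did and 3 were called higher, and their sums in testis (68.2 to 109 TPM) overlapped those in the epididymis (22.6 to 89.0 TPM). The 10 spermatocyte markers summed to 187 to 674 TPM in testis and to at most 12.0 TPM in any other library. The spermatid markers summed to 26423 to 120551 TPM in testis, to 12.0 to 1075 TPM in the epididymis and to at most 19.95 TPM in the accessory glands. DSE testis replicate 2 stood apart from the other 5 testis libraries, with 0.357 times their median sum of spermatocyte markers, 0.317 times that of spermatid markers, 2.66 times that of Sertoli cell markers and 2.91 times that of Leydig cell markers. In tissue libraries of this kind, fewer cells of a type and less RNA per cell cannot be told apart, and the testis differences of the 8 genes, the breed differences of the testis forms, the paralog ratios and the family shares are also given without this library.

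HSPA2 lies on chr7:88607555-88609464 of Sscrofa11.1 on the plus strand, as gene ENSSSCG00000002274. The deposited annotation leaves it without a name, and it was found by the coding span of RefSeq, whose model has 2 exon pieces parted by 2 bases. HSPA1L lies on chr7:23909960-23914629 on the minus strand, as ENSSSCG00000030368, and its neighbour HSP70.2 at chr7:23914890-23928176 on the plus strand encodes the heat-inducible HSP70, so that both genes are transcribed away from each other. The stretch before the RefSeq start of HSPA2 (chr7:88606890-88607139, plus strand) and the stretch between the outermost deposited start of HSPA1L and the next RefSeq exon of that gene (chr7:23914630-23914796, minus strand), which is thus intronic in RefSeq's longer model, are shown because these testis forms had the widest ranges over glands. The stretch before HSPA4 (chr2:135345474-135345723, plus strand), a somatic relative, is shown for comparison. Sequences are from RefSeq's Sscrofa11.1 genome, 5′ to 3′ on the strand of the gene, and capitals mark each match to a heat shock element of 2 units, GAANNTTC or TTCNNGAA, the kind of site that heat shock factors bind.
HSPA2: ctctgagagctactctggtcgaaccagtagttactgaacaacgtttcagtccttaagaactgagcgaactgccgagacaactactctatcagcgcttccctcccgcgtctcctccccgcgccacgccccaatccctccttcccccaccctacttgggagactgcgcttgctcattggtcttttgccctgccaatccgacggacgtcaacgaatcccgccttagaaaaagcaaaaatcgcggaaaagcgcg
HSPA1L: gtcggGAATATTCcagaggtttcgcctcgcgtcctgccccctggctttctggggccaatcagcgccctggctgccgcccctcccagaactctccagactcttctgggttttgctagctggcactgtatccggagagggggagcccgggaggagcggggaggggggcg
HSPA4: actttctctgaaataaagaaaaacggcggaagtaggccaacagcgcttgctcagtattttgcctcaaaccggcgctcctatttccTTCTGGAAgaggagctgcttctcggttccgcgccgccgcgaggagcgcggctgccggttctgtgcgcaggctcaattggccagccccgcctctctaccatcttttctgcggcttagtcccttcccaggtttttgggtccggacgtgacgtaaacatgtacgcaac
The 167 bases of HSPA1L held 1 such match and the 250 bases of HSPA4 held 1, while those of HSPA2 held none. The 250 bases before the starts taken for HSPA4L, HSPH1, HSP90AA1 and HSP90AB1, which are not printed, held none either. For HSP90AB1 that stretch (chr7:39243524-39243773) lies inside the annotated span of the gene, and HSPA8 was not searched. The match of HSPA1L began 162 bases before the end of its stretch, on the side facing HSP70.2, and was not assigned to either gene. Among windows of 250 bases before 18991 expressed genes, 10.4% held a match on these palindromic letters, which read alike on both strands. A cAMP response element, TGACGTCA, was in none of the 3 stretches and in 2.35% of the windows. The CCAAT box, CCAAT on either strand, was found 3 times before HSPA2, 1 time before HSPA1L and 1 time before HSPA4, and at least 1 time in 32.6% of the windows. A match describes letters and no binding was measured.

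HSPA2 was highest in testis, where its lowest, median and highest levels were 73.1, 195 and 235 TPM. The epididymis followed with 28.3, 35.8 and 70.4 TPM, and the bulbourethral gland was lowest with 0.648, 1.23 and 2.64 TPM. No testis library overlapped with the 24 libraries of other glands, and the testis library at 73.1 TPM was DSE replicate 2. On the log2(TPM + 1) scale, testis exceeded the mean of the 4 other glands by 4.30 ± 0.24 (SE; limma, adjusted p = 1.67e-14). From testis to epididymis the difference was 2.06 ± 0.31 (adjusted p = 1.71e-06), and to the bulbourethral gland it was 6.21 ± 0.31 (adjusted p = 1.54e-15). The order of levels was testis, epididymis, prostate gland, vesicular gland and bulbourethral gland, in which prostate and vesicular gland did not pass the test (0.72 on the log2 scale, adjusted p = 0.0713). With Ensembl transcripts alone HSPA2 was at 0 in 26 of the 30 libraries and was not tested, so that its levels rest almost wholly on 3 Iso-seq models, which had 6 full-length reads in all, each from testis. An Ensembl gene on the opposite strand, ENSSSCG00000052641 at chr7:88607447-88609941, covers the whole of HSPA2 and was listed at 79.5 to 193 TPM in testis. The named library kit is not stated to keep strand, so reads of these genes cannot be told apart, and their sum gave a difference of 4.43 ± 0.24 between testis and the other glands.

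HSPA1L was the most restricted of the 8 genes. Its lowest, median and highest levels were 71.3, 286 and 380 TPM in testis and 1.29, 1.56 and 4.63 TPM in the epididymis. In the 18 libraries of the accessory glands it stayed between 0.104 and 0.564 TPM. The lowest testis library, again DSE replicate 2, was above every library of another gland. Testis exceeded the other glands by 7.15 ± 0.22 on the log2(TPM + 1) scale (limma, adjusted p = 4.95e-20), a scale that understates differences for low genes, and the mean TPM was 318 times that of the other libraries. Among epididymis libraries, the highest level (4.63 TPM) was in BMI replicate 2, which also had the highest summed spermatid markers (1075 TPM), while the library with the next highest markers, DSE replicate 1 with 267 TPM, had 1.66 TPM of HSPA1L. The part of spermatid RNA in the epididymis levels was not tested.

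HSPA4L (ENSSSCG00000009077, chr8:97032189-97089949, minus strand), the testis form among the HSP110 relatives, had a lowest, median and highest level of 57.3, 192 and 229 TPM in testis. Elsewhere the highest library was in the vesicular gland at 12.7 TPM and the lowest in the bulbourethral gland at 0.946 TPM. Testis did not overlap with any other gland, and DSE replicate 2 was again its lowest library. The difference to the other glands was 4.73 ± 0.31 on the log2(TPM + 1) scale (limma, adjusted p = 2.96e-13). Below testis, the order was vesicular gland, epididymis, prostate gland and bulbourethral gland, and no neighbours in it passed the test.

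HSPA4 and HSPH1, the HSP110 proteins of other tissues, were also higher in testis. For HSPA4 (ENSSSCG00000014292, chr2:135345752-135391109, plus strand) the testis libraries lay between 57.9 and 102 TPM with a median of 82.6 TPM, and the other glands between 11.05 and 45.2 TPM. These ranges did not overlap, and the difference was 1.83 ± 0.17 (limma, adjusted p = 2.82e-10). With Ensembl transcripts alone it was 3.33 ± 0.41, beside 3.87 ± 0.25 for HSPA4L. For HSPH1 (ENSSSCG00000009334, chr11:7733877-7759930, minus strand) testis ranged from 22.6 to 51.7 TPM with a median of 37.6 TPM, and the other glands from 6.05 to 24.5 TPM. Here DSE testis replicate 2, at 22.6 TPM, fell among the epididymis libraries, and the difference was 1.34 ± 0.23 (adjusted p = 1.49e-05). For both genes the order of the 4 other glands rested on neighbours that did not pass the test.

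HSPA8 and HSP90AB1, the constitutive members, had no called testis difference. HSPA8 (ENSSSCG00000015140, chr9:49982279-49990508, minus strand) had a lowest, median and highest level of 206, 276 and 397 TPM in testis and of 153, 416 and 551 TPM in the bulbourethral gland, with testis overlapping every other gland. Its difference between testis and the other glands was 0.20 ± 0.23, with a 95% interval of -0.27 to 0.68 (limma, adjusted p = 0.430). HSP90AB1 (ENSSSCG00000001701, chr7:39237320-39250481, plus strand) had levels of 164, 202 and 308 TPM in testis and of 160, 301 and 370 TPM in the epididymis, and its difference was 0.26 ± 0.18, with an interval of -0.10 to 0.63 (adjusted p = 0.182). The sign of both differences turned when libraries were scaled by size factors, to -0.05 and -0.04. Without DSE testis replicate 2 they were 0.08 ± 0.25 and 0.15 ± 0.19, and with Ensembl transcripts alone HSPA8 was called as higher in testis (1.59 ± 0.28). In DSE testis replicate 2, where germ cell markers were low, HSPA8 was at 1.44 times and HSP90AB1 at 1.54 times the median of the other testis libraries.

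HSP90AA1 (ENSSSCG00000002535), the stress-inducible HSP90, lies on an unplaced scaffold of the assembly at bases 916829 to 922669 on the minus strand. Its name stands on 3 of its 8 transcripts, and the leading transcript, which came from Iso-seq, carries the gene identifier with an empty name. Summed by name, it ranged from 0.556 to 182 TPM in testis and was listed at 0 in 12 libraries of the other glands, and its testis difference did not pass the test (2.09 ± 1.30, limma, adjusted p = 0.148). Summed by identifier, its lowest, median and highest levels were 708, 1028 and 1158 TPM in testis, and the other glands lay between 118 and 471 TPM without overlap. That sum gave a difference of 1.999 ± 0.187 (adjusted p = 4.70e-10). The identifier was preferred after both sums had been seen, and all values of HSP90AA1 below use it.

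**Figure D1:**
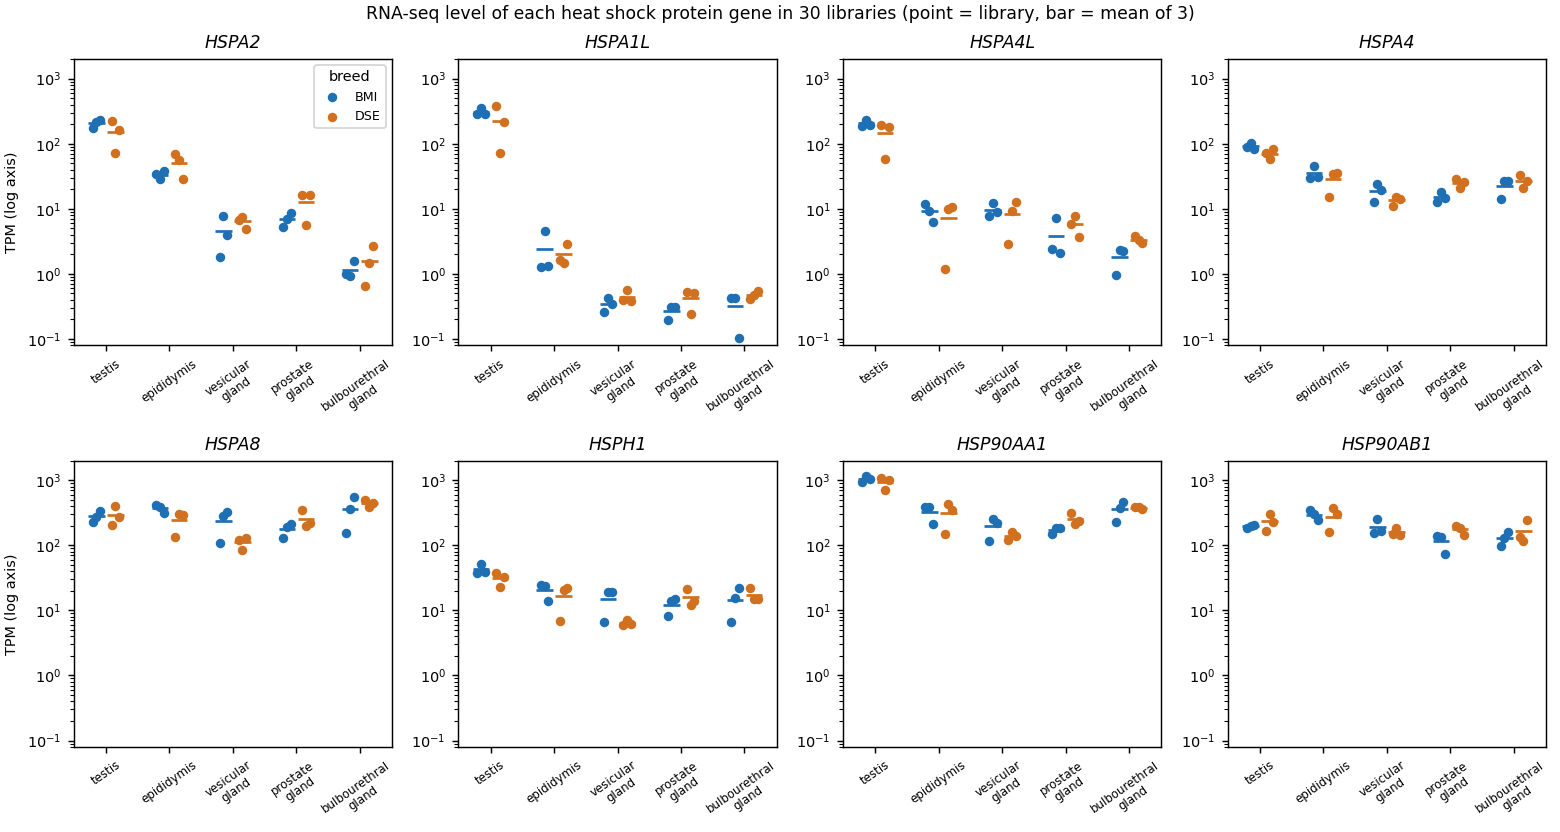
TPM on a log axis for each of the 8 genes in the 5 glands, with 1 point per library, BMI in blue, DSE in orange and a bar for the mean of 3 libraries; HSP90AA1 is summed by identifier. HSPA2, HSPA1L and HSPA4L are at least 18.2 times higher in testis than in any accessory gland in mean TPM, while HSPA8 spans 84.2 to 551 TPM and HSP90AB1 74.8 to 370 TPM over all libraries.

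With HSP90AA1 by identifier, 6 of the 8 genes passed the test as higher in testis than in the other glands and none as lower, against 34.5% of all 19911 genes tested that were called higher and 12.7% called lower (47.3% in either direction). The median difference of the 8 genes was 1.91 on the log2(TPM + 1) scale, beside a median of 0.31 over all genes tested, which became 0.12 with size factors. All 6 testis libraries lay above all 24 others for 5 of the 8 genes, a pattern found for 23.8% of all genes tested, and below all others for none of them, against 3.14% of all genes. Without DSE testis replicate 2 the count of 6 was the same, with differences of 4.52 ± 0.25 for HSPA2, 7.48 ± 0.17 for HSPA1L, 5.02 ± 0.31 for HSPA4L, 1.89 ± 0.18 for HSPA4, 1.44 ± 0.26 for HSPH1 and 2.09 ± 0.20 for HSP90AA1. Summed by name throughout, 5 of 8 genes were called.

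Against each gland by itself, the same 6 genes were called higher in testis. HSPH1 against the epididymis was only just past the threshold of 1 (1.005 ± 0.296, limma, adjusted p = 0.00396). A DSE epididymis library lay at 6.94 TPM of HSPH1, beside 14.1 to 24.5 TPM in the others of that gland. The share of all genes called higher in testis was 29.3% against the epididymis, 44.8% against the vesicular gland, 36.5% against the prostate gland and 33.3% against the bulbourethral gland. In either direction these shares were 51.0%, 52.9%, 48.8% and 49.1%. For the vesicular gland this background moved with the scaling, from 8930 higher and 1600 lower calls to 6430 higher and 3305 lower calls with size factors (8.04% called lower before). Between the epididymis and the accessory glands, HSPA2 was higher in the epididymis by 2.76 ± 0.31 over the vesicular gland, 2.04 ± 0.31 over the prostate gland and 4.16 ± 0.31 over the bulbourethral gland. HSPA1L was higher in the epididymis than in each accessory gland by 1.12 to 1.17, near the threshold of 1. Its epididymis levels were 1.29, 1.30 and 4.63 TPM in BMI and 1.47 to 2.92 TPM in DSE, so BMI replicate 2, at 4.63 TPM, weighs on these calls. HSPA4L passed in the comparison with the bulbourethral gland (1.22 ± 0.39, limma, adjusted p = 0.0150). These were the 2, 2 and 3 calls among the 8 genes, where 36.5%, 21.3% and 21.3% of all genes were called in either direction. The 36.5% for the vesicular gland also moved with the scaling. It held 6878 calls higher and 383 lower in the epididymis, which became 1714 and 1312 with size factors.

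Among the accessory glands the calls were few. No member was called between vesicular and prostate gland, where 14.8% of all genes were. Between vesicular and bulbourethral gland 4 of 8 genes were called, with 27.8% of all genes: HSPA2 and HSPA4L were higher in the vesicular gland, by 1.39 ± 0.31 and 1.40 ± 0.39, and HSPA8 and HSP90AA1 in the bulbourethral gland, by 1.27 ± 0.29 and 1.16 ± 0.24. Over all genes this comparison moved with the scaling, from 823 calls higher and 4705 lower in the vesicular gland to 1779 and 1519 with size factors. By name, the calls of members over all pairs of glands went from 31 to 28 with size factors. The prostate gland exceeded the bulbourethral gland in HSPA2 alone of the 8 (2.12 ± 0.31), with 7.65% of all genes called. In the bulbourethral gland BMI replicate 1 was low in HSPA8 (153 TPM against 367 to 551 TPM), HSPH1 (6.58 TPM against 14.9 to 21.8 TPM) and HSP90AA1 (227 TPM against 365 to 471 TPM). Skeletal muscle markers summed to 353 TPM in that library, to at most 20.2 TPM in 4 of the other 5 and to 1157 TPM in DSE replicate 3, and their part in these levels was not tested.

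Paralog ratios set the testis forms directly against their relatives within each library, so that scaling between libraries drops out. The log2 ratio of HSPA2 to HSPA8 was -0.72 ± 0.89 (SD, n = 6) in testis, -2.87 ± 1.06 in the epididymis and -8.23 ± 0.86 in the bulbourethral gland. The ratio of HSPA1L to HSPA8 fell from -0.24 ± 1.18 in testis to -7.22 ± 0.88 in the epididymis and -10.03 ± 1.28 in the bulbourethral gland. Without DSE testis replicate 2 the testis means of these ratios were -0.38 ± 0.31 and 0.21 ± 0.49 (n = 5). In these terms HSPA2 and HSPA1L made up 59.1% ± 16.9 of the summed TPM of HSPA2, HSPA1L and HSPA8 in testis, with DSE replicate 2 lowest at 26.7% (65.6% ± 6.31 without it), and 0.502% ± 0.268 in the bulbourethral gland.

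Within the HSP110 group the balance turned. HSPA4L stood above HSPA4 in testis (log2 ratio 1.02 ± 0.52) and below it in every library of the other glands, from -0.96 ± 0.59 in the vesicular gland to -3.31 ± 0.44 in the bulbourethral gland. The testis library nearest to equal levels was DSE replicate 2 (-0.02). Against HSPH1, the ratio of HSPA4L was 2.18 ± 0.42 in testis and between -0.22 (vesicular gland) and -2.63 (bulbourethral gland) on average elsewhere. Without DSE testis replicate 2 the testis means of both ratios were 1.23 ± 0.14 and 2.34 ± 0.13.

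For HSP90, the ratio of HSP90AA1 to HSP90AB1 was 2.23 ± 0.54 in testis, 0.11 ± 0.21 in the epididymis, -0.11 ± 0.28 in the vesicular gland, 0.57 ± 0.43 in the prostate gland and 1.36 ± 0.42 in the bulbourethral gland. HSP90AA1 thus held 81.8% ± 6.20 of the TPM of both in testis (84.3% ± 1.96 without DSE replicate 2, with a ratio of 2.43 ± 0.22) and 48.1% ± 4.82 in the vesicular gland. All 20 comparisons of a ratio between testis and another gland passed (exact permutation test, two-sided, n = 6 and 6, adjusted p at most 0.0130 over the 20), and 17 of them without overlap between libraries. No share of other gene pairs passing such a test was computed, so this count has no background. HSPA8 and HSP90AB1 had no called testis difference, so the ratios to them in large part restate the differences of HSPA2, HSPA1L and HSP90AA1. With Ensembl transcripts alone, 8 comparisons by name could be formed, of HSPA1L to HSPA8 and of HSPA4L to HSPH1, and all 8 passed, while the other pairs had libraries at 0. The 3 with overlap were HSPA2 to HSPA8 in the epididymis and HSP90AA1 to HSP90AB1 in the prostate and bulbourethral glands, and in each DSE testis replicate 2 was the overlapping testis library and the overlap was gone without it. On the other side stood DSE epididymis replicate 1 alone (-0.92, beside -2.44 in DSE testis replicate 2), BMI prostate replicate 3 alone (1.29, beside 1.20) and most of the bulbourethral libraries.

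**Figure D2:**
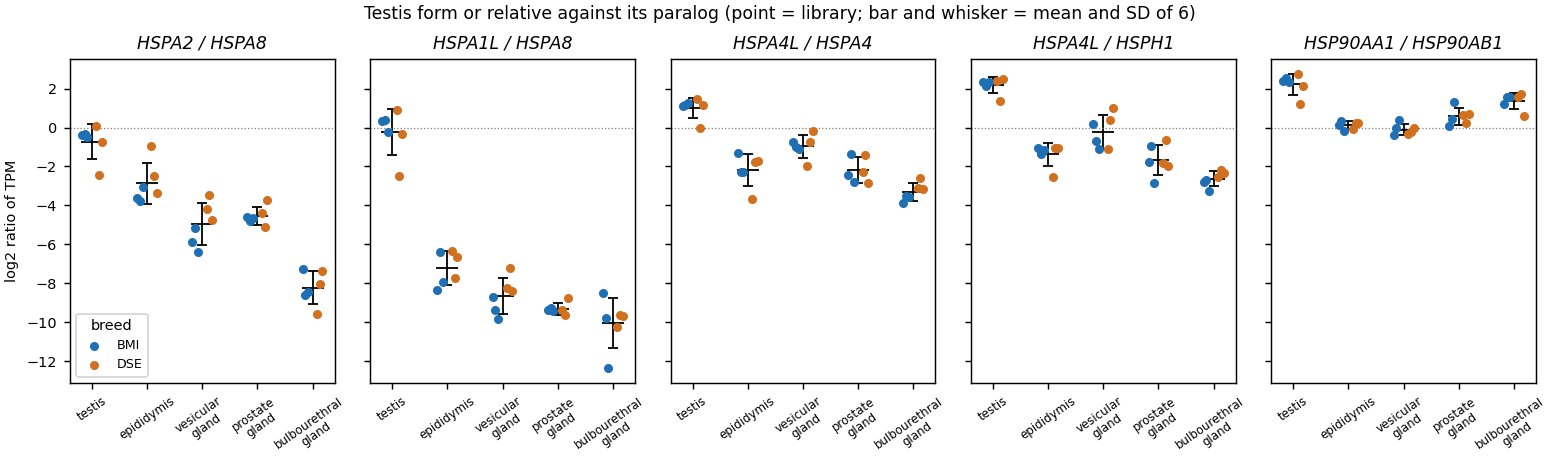
log2 ratio of TPM for 5 pairs of paralogs in the 5 glands, with 1 point per library in the colours of the breeds and a bar and whisker for the mean and SD of 6; the dotted line marks equal TPM. Testis is highest in each pair, with the low DSE point of each testis column being replicate 2.

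Breed differences were sought within each gland, as DSE minus BMI with 3 libraries on each side. In testis HSPA2 had 174, 216 and 235 TPM in BMI and 220, 73.1 and 164 TPM in DSE. HSPA1L had 286, 356 and 286 TPM in BMI and 380, 71.3 and 219 TPM in DSE, and HSPA4L had 189, 229 and 197 TPM in BMI and 195, 57.3 and 184 TPM in DSE. The breeds overlapped for each of these genes, and DSE replicate 2 was the lowest library each time. HSPA4 had 88.6, 102 and 83.1 TPM in BMI and 70.9, 57.9 and 82.0 TPM in DSE, without overlap between breeds and with a difference of -0.38 ± 0.30 that did not pass. The limma differences of the 3 testis forms were -0.57 ± 0.43, -0.76 ± 0.39 and -0.68 ± 0.55 on the log2(TPM + 1) scale, and -0.12 ± 0.45, -0.09 ± 0.31 and -0.11 ± 0.57 without DSE testis replicate 2.

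None of the 40 comparisons of a member between breeds was called by limma, where 4.77% of all genes were called in testis, 0.703% in the epididymis, 0.477% in the vesicular gland, 0.598% in the prostate gland and 0.296% in the bulbourethral gland. In testis these were 949 of 19911 genes, and 511 of 19841 without DSE testis replicate 2, where again no member was called. At an unadjusted p under 0.05 there were 3: HSPA8 and HSPH1 were lower in DSE vesicular gland (-0.96 ± 0.41 and -0.99 ± 0.42) and HSPA4 was higher in DSE prostate gland (0.69 ± 0.30). At that level 2406 of 19911 genes passed in the vesicular gland and 2608 in the prostate gland. The counts were 3594 in testis, 1423 in the epididymis and 781 in the bulbourethral gland. The median breed difference of all genes was -0.27 in the vesicular gland and 0.23 in the prostate gland, and 0 in both with size factors. With DSE testis replicate 1 left out, HSPA1L alone passed as lower in DSE testis (-1.29 ± 0.37, adjusted p = 0.0239), on DSE libraries of which 1 was replicate 2. The breed difference in testis did not differ from that in the other glands for any of the 8 genes (limma interaction). With an adjusted p below 0.05 there were 0 of 8, against 5.38% of all genes. At an unadjusted p under 0.05 there was 1 of 8, HSPA2, against 3192 of 19911 genes. The exception was HSPA1L, which passed without DSE testis replicate 1 (limma interaction, adjusted p = 0.0331). Paralog ratios in testis did not separate the breeds for any of the 5 pairs, and with 3 libraries against 3 the exact permutation test cannot give a p below 0.10.

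In DSE testis replicate 2, HSPA2 was at 0.339, HSPA1L at 0.249 and HSPA4L at 0.293 times the median of the other 5 libraries, beside 0.357 for the summed spermatocyte markers and 0.317 for the spermatid markers. HSPA4, HSPH1 and HSP90AA1 were at 0.696, 0.599 and 0.675 times, while HSPA8 and HSP90AB1 were above the others.

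**Figure D3:**
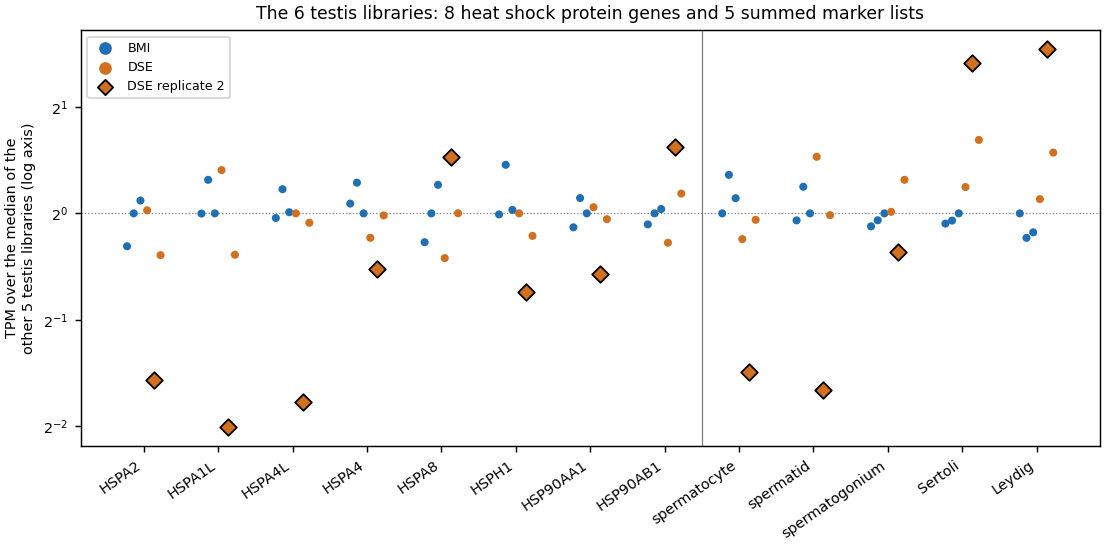
Level of each of the 8 genes and summed level of 5 marker lists in the 6 testis libraries, divided by the median of the 5 libraries other than DSE replicate 2 (log axis). The diamond of DSE replicate 2 sits between 0.249 and 0.357 for HSPA2, HSPA1L, HSPA4L and the spermatocyte and spermatid lists, and above 1 for HSPA8, HSP90AB1 and the Sertoli and Leydig lists.

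Iso-seq gave a separate count of full-length reads, with 1 library per breed and gland and thus no test. HSPA1L had 111 reads in BMI testis and 111 in DSE testis, 1 read in BMI epididymis and 0 in the other 7 libraries. HSPA4L had 398 and 422 reads in testis and 0 to 8 in each other library. HSP90AA1 had 963 and 1007 reads in testis, or 212 and 220 per 100000 reads (Wilson 95% intervals 199 to 225 and 207 to 234), and 23.6 to 59.7 per 100000 in the other libraries. These 3 genes were thus highest in the testis libraries of both breeds by either method, and for HSP90AA1 the Iso-seq reads were assigned by the identifier.

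HSPA8 was low in testis, with 39.8 and 29.1 reads per 100000 in BMI and DSE testis and 36.7 to 139 in the other libraries, of which only DSE epididymis lay below BMI testis. HSPA4 had 45.1 and 41.1 per 100000 in testis and 9.94 to 37.8 elsewhere. HSPH1, called higher in testis by RNA-seq, had 29.7 and 37.4 per 100000 in BMI and DSE testis and 5.19 to 34.2 elsewhere. For HSPH1 the DSE prostate gland (34.2) thus lay above BMI testis. HSPA2 had 2 and 4 reads in testis and 0 elsewhere, where 0 reads allow up to 3 counts of the library's total, 0.654 to 1.30 per 100000. The Iso-seq table holds no isoform of fewer than 2 exons, so an unspliced transcript of HSPA2 could not be counted in it. HSP90AB1, at 164 to 308 TPM in testis, had 30 and 18 reads there, and intervals and limits cover counting error alone. HSPA2, HSPA1L and HSPA4L together took 25.2% (Wilson 95% interval 23.4 to 27.2%) of the reads on the 8 genes in BMI testis, 26.1% (24.3 to 28.1%) in DSE testis and 0% to 2.07% in the other libraries.

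**Figure D4:**
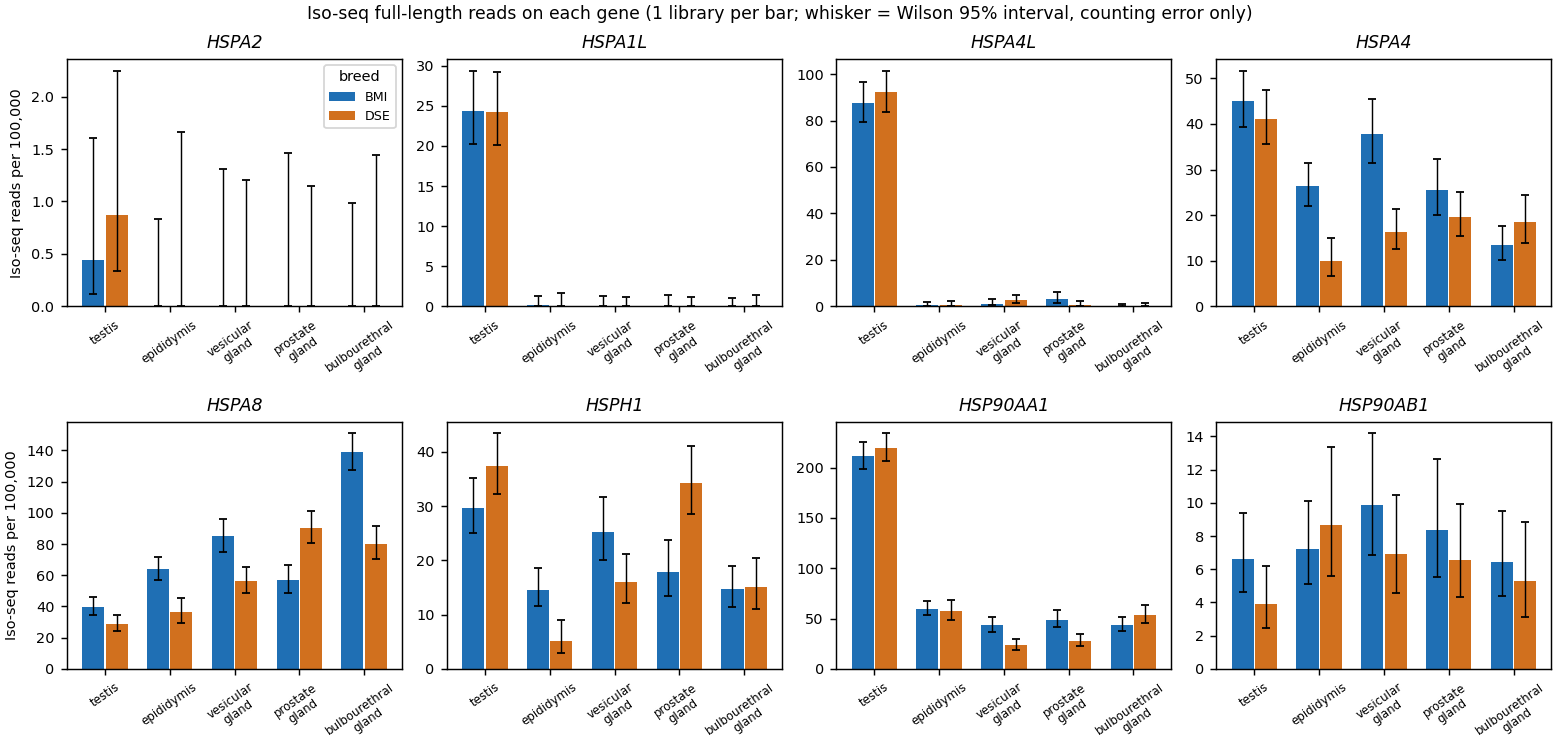
Iso-seq full-length reads per 100000 reads of the library on each of the 8 genes, with 1 library per bar, BMI in blue, DSE in orange, and whiskers for Wilson 95% intervals; each panel has its own axis from 0. HSPA1L, HSPA4L and HSP90AA1 stand highest in testis in both breeds, and HSPA8 is highest in BMI bulbourethral gland at 139.

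The share of a gene's TPM carried by its leading transcript (the one with the largest mean TPM over all libraries) was compared next. It differed between testis and another gland in 10 of 32 comparisons (exact permutation test, two-sided, n = 6 and 6, adjusted p below 0.05), and these lay in HSPA4L (4), HSPA4 (4) and HSPA2 (2). The share of all genes with such a difference was not computed, so these counts have no background. The 4 of HSPA4L are a description, since its transcript was in effect chosen on its testis level, while the shares of HSPA4 and HSPA2 that differed were lower in testis. For HSPA4L the leading transcript, of 21 exons, carried 41.8% ± 4.67 (SD) in testis and was listed at 0 in all 24 other libraries. For HSPA4 the leading transcript carried 20.5% ± 8.35 in testis and 61.1% to 91.7% on average in the other glands. HSPA8, HSPH1, HSP90AA1, HSP90AB1 and HSPA1L had no comparison past the threshold, and for HSPA1L the shares in the accessory glands rest on levels of at most 0.564 TPM. The share of HSPA2 in the bulbourethral gland, 100% in each library, rests on levels of 0.648 to 2.64 TPM. The leading transcript of HSPA2, with 61.8% ± 6.42 of its testis TPM, is a 6-exon model from chr7:88164773-88609799 that reaches far upstream of the gene and had 2 Iso-seq reads.

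The HSPA4 transcripts differ at the 3′ end. Transcripts ending 1916 to 1918 bases before the longest end carried 78.0% ± 8.34 (SD, n = 6) of HSPA4 TPM in testis, 24.6% ± 10.6 in the epididymis, 34.8% ± 6.01 in the vesicular gland, 12.6% ± 9.70 in the prostate gland and 4.51% ± 3.12 in the bulbourethral gland. Iso-seq did not show this: 388 of 393 HSPA4 reads in testis (98.7%) ended at the longest end and 3 at the earlier one, beside 535 and 3 of 541 reads in the other glands. The leading HSPA4L transcript by TPM likewise had 2 of the 820 Iso-seq reads of HSPA4L in testis, of which 794 (96.8%) ended at 1 shared position. Isoform shares from short reads and from full-length reads thus differed for both genes, and which of them holds was not tested.

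Genes with the most similar pattern over the 30 RNA-seq libraries were ranked by Pearson's r on log2(TPM + 1), as a description. HSPA1L was closest to ABHD16B, PHF7, WNT3, GSTT4 and DNAAF1 (r = 0.995 to 0.997), of which PHF7, a chromatin reader of spermatids, had 1153 TPM in testis and 0.989 TPM elsewhere on average. HSPA4L was closest to ZPBP2, LRRC34, FANCD2OS, TRIM36 and CEP44 (r = 0.962 to 0.966), and ZPBP2 is a zona pellucida binding protein of sperm. HSPA2 was closest to TCFL5, a germ cell transcription factor, then to WT1, PPP1R36, ISYNA1 and GPS1 (r = 0.937 to 0.948). A high r over these libraries can come from testis against the other glands alone, and it names no cell type.

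HSPA4 was closest to TCP1, a subunit of the chaperonin, then to CACUL1, NFYA, CAMLG and PSMD2 (r = 0.971 to 0.976). HSP90AA1 was closest to RBM17, PAFAH1B1, ARIH2, CTR9 and RPF1 (r = 0.972 to 0.978). HSPH1 was closest to PTGES3, the HSP90 co-chaperone p23, and had HSPA4 and the co-chaperone PPID among its 5 (r = 0.914 to 0.918 with AKIRIN1 and CNOT4). HSPA8 was closest to NIFK, SRSF3, CCT6A, DHX15 and ABT1 (r = 0.835 to 0.857) and HSP90AB1 to DHX9, UBA1, ADD3, ZNF660 and MARCHF5 (r = 0.861 to 0.870). Among the 24 libraries outside testis, HSPA8, HSPH1, HSPA4 and HSP90AA1 varied together, with r of 0.814 to 0.903 between the 6 pairs, whereas HSPA2 and HSPA8 had r = -0.05.

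The partners of these chaperones were examined in 9 lists, in which 126 of 134 genes were in the table and 124 were tested. Of these, 54 were higher in testis, 16 were lower and 54 did not pass (limma), with a median difference of 0.70 beside the 0.31 of all genes. Of all genes 34.5% were called higher and 12.7% lower, against which each count of a list below is to be read. All 6 tested genes of the heat shock factor list were higher in testis, among them HSF5 (6.54 ± 0.15), HSF2BP, a partner of HSF2 (3.01 ± 0.14), HSF4 (2.14 ± 0.29) and HSF1 (2.08 ± 0.13). HSF1, the main regulator of the heat response, lay between 83.3 and 186 TPM in testis and between 16.8 and 48.2 TPM elsewhere, without overlap.

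Of 42 J proteins, 16 were higher in testis, 4 were lower and 22 did not pass, shares near those of all genes (34.5% and 12.7%). DNAJB8 had 324 to 1332 TPM in testis and at most 19.7 TPM elsewhere (9.69 ± 0.37), and DNAJC5B, DNAJB13 and DNAJC5G rose by 7.45, 5.99 and 5.14. The 4 lower ones were DNAJC6 (-1.45 ± 0.24), DNAJC10, which acts in the endoplasmic reticulum (-1.43 ± 0.16), DNAJC25 (-1.17 ± 0.16) and DNAJC22 (-1.09 ± 0.31), and DNAJC22 did not pass without DSE testis replicate 2 (-0.85 ± 0.33). Without that library 17 J proteins were higher and 3 lower. Of the 12 nucleotide exchange factors and regulators of HSP70, 7 were higher and none was lower, with BAG2 (4.003 ± 0.330), BAG6 (3.48 ± 0.14, but -0.75 with Ensembl transcripts alone), BAG5 (3.33 ± 0.19) and BAG4 (1.51 ± 0.14) the largest.

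Among 20 HSP90 co-chaperones 8 were higher in testis, near the share of all genes (34.5%), and none was lower. FKBP6, known for its part in meiosis, had 30.7 to 110 TPM in testis and at most 0.225 TPM elsewhere (6.34 ± 0.14), and TOMM34, FKBPL and FKBP4 rose by 4.43, 3.81 and 2.07. The chaperonin list, which folds actin and tubulin, had 10 of 12 genes higher in testis and none called lower. Its testis-restricted PDCL2, CCT6B and CCT8L2 differed by 6.57, 6.41 and 5.98, and CCT3, a subunit of all cells, by 2.86 ± 0.16.

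Small heat shock proteins went both ways, with 2 of 8 higher, 2 lower and 4 not passing. HSPB9 (1204 to 4394 TPM in testis, 10.90 ± 0.43) and ODF1, a protein of the sperm tail (628 to 2203 TPM, 10.23 ± 0.35), were higher, and HSPB7 and HSPB8, known from muscle, fell by 2.05 and 1.94. Of the 9 organelle chaperones, the mitochondrial HSPA9 (1.499 ± 0.177), HSPE1 (1.47 ± 0.18) and HSPD1 (1.17 ± 0.20) were higher, near the share of all genes (34.5%), and none was lower. Without DSE testis replicate 2 HSPD1 was below the threshold (0.93 ± 0.19) and another gene of the list passed, so the count stayed at 3.

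The inducible HSP70 went against the testis forms. HSP70.2 ranged from 75.1 to 160 TPM in testis, with a median of 98.2 TPM, and from 158 to 3339 TPM elsewhere. It was lower in testis by 2.11 ± 0.42 (limma, adjusted p = 8.29e-05), with DSE testis replicate 2 at 160 TPM just overlapping the lowest other library. Of the 6 further HSP70 genes tested, this one included, HSPA12A (5.52 ± 0.28, no longer called with Ensembl transcripts alone) and HSPA14 (1.25 ± 0.13) were higher in testis and HSPA12B (-1.10 ± 0.28) was lower, while HSPA6 (-1.06 ± 0.57) and HSPA13 (-0.50 ± 0.27) did not pass. Of 9 immediate early genes, which respond to handling and stress of tissue, 8 were lower in testis, with FOS at 2.96 to 43.4 TPM in testis and 0.833 to 1783 TPM elsewhere, and 7 were lower without DSE testis replicate 2. The highest HSP70.2 levels were in BMI bulbourethral gland replicate 3 (3339 TPM), BMI vesicular gland replicate 3 (3189 TPM) and BMI epididymis replicate 1 (1456 TPM), and the part of tissue handling in these levels was not tested. BMI epididymis replicate 1 also had the highest summed markers of its gland for blood and immune cells (2740 TPM, at most 1648 TPM in the others), endothelium (525 TPM, at most 230 TPM) and skeletal muscle (558 TPM, at most 99.3 TPM), whose part was not tested either.

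**Figure D5:**
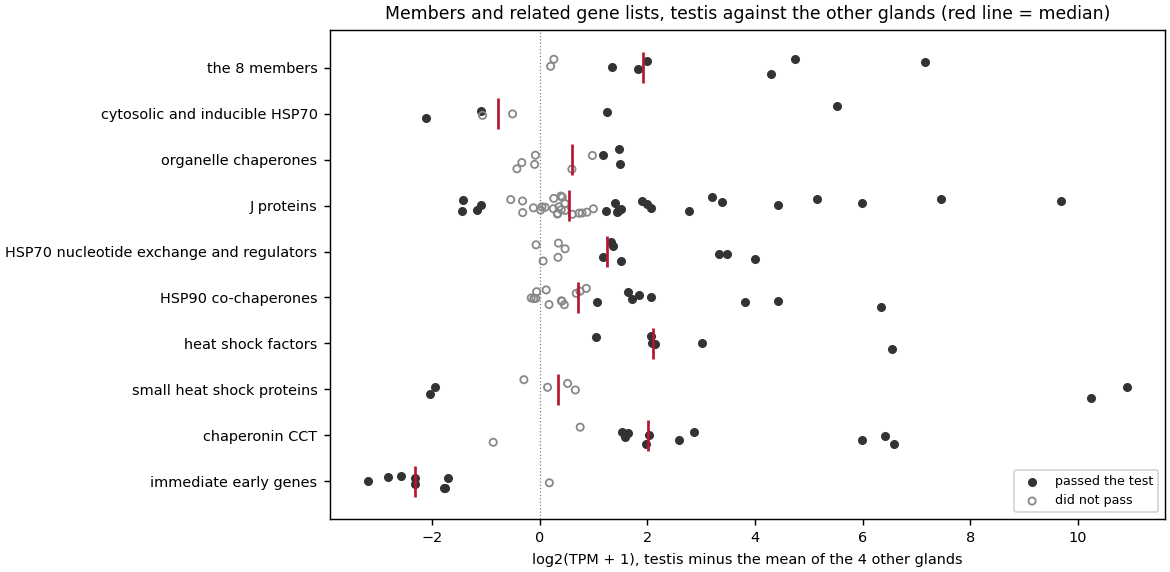
log2(TPM + 1) difference of testis minus the mean of the 4 other glands for the 8 members (HSP90AA1 by identifier) and for the tested genes of 9 related lists, with filled points past the test, open points not past it and a red line for the median of each list. The members reach from 0.20 (HSPA8) to 7.15 (HSPA1L), the heat shock factors lie at 1.05 or more, and the immediate early genes have a median of -2.31.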

How the data were processed

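The authors estimated transcript levels as TPM with Salmon 1.9.0 on an annotation merged from Ensembl and Iso-seq isoforms of Sscrofa11.1. For Iso-seq, raw read counts were deposited for each isoform. The labels name rRNA depletion for RNA-seq, whereas the methods name poly-T beads. Small RNA data were not used here.

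TPM were summed over transcripts by gene name, or by gene identifier where no name is given. Genes reaching 1 TPM in 3 or more libraries were fitted in limma 3.58.1 (R 4.3.3) as log2(TPM + 1), with 1 mean per breed and gland over 30 libraries and a mean-variance trend, and called where p, adjusted over all genes by Benjamini-Hochberg, was below 0.05 and the log2 difference was 1 or more (for the interaction, p alone). Ratios and isoform shares were compared by exact permutation tests over all 924 splits. Median values, exact tests and intervals were computed in Python 3.11.15 with scipy 1.17.1, and the fits were tested on simulated data. The 8 genes, the lists and the tests were chosen with earlier results of these data known.

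Of a list, all called genes are named where a direction has 5 or fewer, and otherwise the 4 with the largest difference. The 5 genes most like a member were taken from genes with a symbol. Of the listed genes, 8 were not matched by symbol, and the inducible HSP70 was taken as HSP70.2. Same-numbered libraries were not taken as pairs, since their deviations from the group means correlated above 0.1 in 20 of 60 pairs between glands. Alternatives were another pseudocount and filter, size factors, no trend, Ensembl transcripts alone, sums by identifier, a replicate block and leaving out each library. HSPA2 with its antisense gene, HSP90AA1 by identifier in the ratios and the Iso-seq ends of HSPA4 and HSPA4L were added after seeing the data.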

Additional observations from a re-analysis of the deposited data

Results flagged for a closer look

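A library was flagged where its gap to the next exceeded Dixon's 95% critical value within the 6 libraries of a gland, on the log2(TPM + 1) scale. Of 40 groups examined 10 were flagged, where chance flags about 1 in 20. DSE testis replicate 2 was low in HSPA2 (73.1 TPM against 164 to 235 TPM), HSPA1L (71.3 TPM against 219 to 380 TPM) and HSPA4L (57.3 TPM against 184 to 229 TPM). In the bulbourethral gland, BMI replicate 1 was low in HSPA8 (153 TPM), HSPH1 (6.58 TPM) and HSP90AA1 (227 TPM), and BMI replicate 3 was low in HSPA1L (0.104 TPM against 0.410 to 0.549 TPM). DSE epididymis replicate 1 was low in HSPA4L (1.19 TPM against 6.30 to 12.0 TPM) and HSPA8 (134 TPM against 289 to 418 TPM). DSE vesicular gland replicate 1 was low in HSPA4L (2.84 TPM against 7.68 to 12.7 TPM).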

How the results depend on the processing

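The count of members called between testis and the other glands stayed at 5 by name when each library was left out and was 5 or 6 under every other alternative. With Ensembl transcripts alone HSPA8 took a call (1.59 ± 0.28) and HSPA2 was not tested. The calls between pairs of glands ranged from 28 to 35 with libraries left out, around 31 of 80 by name and 36 by identifier. Calls between breeds ranged from 0 to 1, and those of the interaction from 0 to 1, each 1 being HSPA1L without DSE testis replicate 1. The 16 ratio comparisons defined by name all passed and stayed at 16 with libraries left out, and with Ensembl transcripts alone all 8 that could be formed passed, since the other pairs had libraries at 0. Ratios of the breeds in testis, none apart, ranged from 0 to 2 apart, 2 without DSE testis replicate 1 and 1 without DSE testis replicate 2. Isoform calls ranged from 8 to 12 around 10, list genes called from 67 to 71 around 70, and all genes called from 9147 to 9731 around 9414. All genes called became 5567 with Ensembl transcripts alone, where fewer transcripts enter, and 14892 with no fold threshold. The Iso-seq share of the testis forms rose to 99.8% in both testis libraries on full-splice matches alone, a class that leaves out nearly all reads of the other members, and to 75% of 4 reads in BMI epididymis and 33.3% of 3 reads in DSE vesicular gland. BAG6 turned to -0.75 with Ensembl transcripts alone, and the cause was not tested.

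With a replicate block, 5 members were called in testis, 31 between pairs of glands, 0 between breeds and 0 in the interaction, 16 ratios passed, and 70 list genes and 9419 genes in all were called. The numbers were not taken as pairing, since the deviations of only 20 of 60 same-numbered pairs of libraries from 2 glands of a breed correlated above 0.1, although 30 of the 60 were highest with their own number among 3, more than an equal chance for each number would give.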

Other observations

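The 5 members other than the testis forms differed in their place in Iso-seq: full-length reads from testis made up 63.2% of the reads of HSP90AA1, 42.1% of HSPA4, 39.8% of HSPH1, 20.4% of HSP90AB1 and 13.5% of HSPA8, over libraries of unequal depth. HSPA4L had 19 Iso-seq isoforms, of which 11 had reads in testis alone. Of its 25 reads outside testis, 8 ended at the position that took 794 of the 820 testis reads.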
